A study of Homo sapiens with 18 samples.

Results

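OUMS23 is an established cell line labelled as colorectal cancer, and it was read here on 1 array of 18, against 17 other lines labelled in the same way. The comparison took every gene of the deposited table through 1 probe set per gene, the one with the highest mean over the arrays, and asked in which genes OUMS23 stood apart from the rest of the panel. Each line is a separate cancer culture with no treatment named in the labels, so the other lines are a panel and not a control group, and no normal colon was used here. OUMS23 was grown in DMEM/F-12 with serum and antibiotics, as were 9 other lines, namely CAR1, CL40, HT55, HUTU80, LS180, RKO and the SW lines SW1463, SW48 and SW948. The 8 lines COLO320HSR, HCT116, KM12, LS513, MDST8, NCIH716, RCM1 and SNUC1 were grown in RPMI-1640. The labels give no origin of OUMS23 beyond colorectal cancer, and its identity was not checked. Each line was measured once, so no value below has a replicate error. A single array against 17 cannot reach a one-sided exact permutation p under 0.0556, and values, gaps and counts are therefore given without a test.

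All values are log2 intensities, on which 1 unit is a 2-fold and 3 units an 8-fold difference. The level taken as background was 4.32, the 95th percentile of 95 probe sets for genes of retina, lens, pituitary, germ line and other tissues. Values at or under it are read as not detected, and their order has no meaning. By this level 10166 of 19774 genes were detected in OUMS23 and 10027 to 10611 in the other lines, and array medians lay between 3.65 and 3.69. In all, 13899 genes were detected in at least 1 line. The median difference of these genes between OUMS23 and the middle of the other lines was -0.02, against -0.06 to 0.05 for the other lines treated in the same way. Over 4899 genes with a range of at least 3 units, OUMS23 correlated most with HCT116 (Pearson r = 0.55) and least with NCIH716 (r = 0.34). The best partner of each other line had an r of 0.53 to 0.86. These correlations run across genes, which are not independent, and describe the arrays only. They also share the array platform and the authors' normalization.

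Several of the gene groups described here are normally kept to tissues other than the gut. Cancer-testis genes, many of them in families on chromosome X, are active in germ cells or placenta, silent in most adult tissues and switched on in some tumours. Trophoblast, the epithelium of the placenta, makes pregnancy-specific glycoproteins, steroid hormones and envelope proteins inherited from retroviruses. Smooth and cardiac muscle share an actin and myosin apparatus whose genes often carry CArG boxes, short elements bound by serum response factor. Colon epithelium, by contrast, is specified by CDX factors and expresses villin, intestinal cadherin and keratin 20. Many housekeeping genes have promoters rich in CG dinucleotides, the sites of DNA methylation in mammals.

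The 250 bases before the annotated start are shown for 6 genes on which the results turn, 2 muscle genes and 2 pregnancy-specific glycoproteins that were high and 2 genes that were low. They are from RefSeq, build GRCh38.p14, and run 5′ to 3′ on the strand of the gene. In the first pair, MYL7 (chr7:44141333-44141582, minus strand) and ACTG2 (chr2:73892758-73893007, plus strand), capitals mark matches to the CArG box, which was searched on both strands:
MYL7: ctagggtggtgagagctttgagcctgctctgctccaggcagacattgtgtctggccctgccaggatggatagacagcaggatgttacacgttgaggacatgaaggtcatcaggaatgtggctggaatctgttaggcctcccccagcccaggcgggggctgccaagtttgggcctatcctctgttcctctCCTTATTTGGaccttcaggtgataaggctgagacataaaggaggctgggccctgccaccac
ACTG2: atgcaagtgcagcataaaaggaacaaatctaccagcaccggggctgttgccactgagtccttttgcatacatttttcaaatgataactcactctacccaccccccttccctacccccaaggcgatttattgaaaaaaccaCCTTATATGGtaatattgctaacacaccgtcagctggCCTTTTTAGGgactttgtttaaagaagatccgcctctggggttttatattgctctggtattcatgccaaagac
MYL7 held 1 match, starting 61 bases before the start, and ACTG2 held 2, at 110 and 73 bases before it. Of 11232 promoters of detected genes, 115 (1.02%) held such a match within 300 bases. Among them were 3 of 12 in the actomyosin list (ACTG2, MYLK and CNN2) and 1 of 8 in the cardiac list (MYL7). Of genes at least 2 units above every other line, 2 of 79 promoters (2.53%) held a match, the 2 shown here. Of genes at least 2 units above the median of the other lines, 7 of 502 (1.39%) did. In the other sequences capitals mark CG dinucleotides. PSG3 (chr19:42740482-42740731, minus strand) and PSG5 (chr19:43186537-43186786, minus strand) were high, and PAM (chr5:102755055-102755304, plus strand) and CERS6 (chr2:168456022-168456271, plus strand) were low:
PSG3: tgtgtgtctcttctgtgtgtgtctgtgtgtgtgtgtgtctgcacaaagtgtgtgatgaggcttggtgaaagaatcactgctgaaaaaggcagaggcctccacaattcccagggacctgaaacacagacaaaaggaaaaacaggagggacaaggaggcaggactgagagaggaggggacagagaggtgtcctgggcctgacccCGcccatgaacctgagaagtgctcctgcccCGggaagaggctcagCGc
PSG5: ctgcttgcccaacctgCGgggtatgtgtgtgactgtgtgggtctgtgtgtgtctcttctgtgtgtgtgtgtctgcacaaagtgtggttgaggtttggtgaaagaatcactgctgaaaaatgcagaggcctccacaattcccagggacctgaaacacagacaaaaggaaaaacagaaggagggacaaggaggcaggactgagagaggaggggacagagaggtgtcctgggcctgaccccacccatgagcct
PAM: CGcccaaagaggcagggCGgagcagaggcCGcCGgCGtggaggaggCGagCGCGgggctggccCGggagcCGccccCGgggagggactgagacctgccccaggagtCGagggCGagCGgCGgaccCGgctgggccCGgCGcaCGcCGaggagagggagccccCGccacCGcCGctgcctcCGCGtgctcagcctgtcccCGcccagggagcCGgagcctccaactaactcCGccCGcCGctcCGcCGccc
CERS6: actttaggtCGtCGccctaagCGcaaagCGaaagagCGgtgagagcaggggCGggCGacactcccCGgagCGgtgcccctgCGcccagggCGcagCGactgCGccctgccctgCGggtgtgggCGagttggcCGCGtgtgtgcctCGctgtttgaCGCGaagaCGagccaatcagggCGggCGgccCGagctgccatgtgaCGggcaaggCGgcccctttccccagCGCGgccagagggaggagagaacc
The stretches of PSG3 and PSG5, which are near copies, held 3 and 1 CG dinucleotides, whereas those of PAM and CERS6 held 32 and 28. The same stretch held 12 in XAGE3, which was high, and 28 in SNX7, which was low. These few genes do not stand for all high and low genes, which are compared as sets below. A match to these letters is a description of the sequence and shows neither binding nor methylation, which were not measured here.

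OUMS23 held 113 genes that lay at least 2 units (4-fold) above every other line, 0.813% of the 13899 detected genes. Only NCIH716 with 148 and MDST8 with 120 had more, and the 17 other lines ran from 1 in SW948 to 148 with a median of 20. At the other end, 44 genes lay at least 2 units below every other line, 0.574% of the 7666 genes detected in all of the others. That was the highest count of any of the 18 lines, ahead of HUTU80 with 37, and the median of the other lines was 7. The count was 68 when HUTU80 was left out, and it was 29 when all probe sets of a gene were averaged. OUMS23 was detected and the highest of all lines in 1244 genes, 8.95% of those detected anywhere. Among the 7666 genes detected in all other lines it was the lowest in 677, after CAR1 with 885 and NCIH716 with 749. Of the 113 high genes, 69 were detected in no other line and 18 in 1 other line, 56 had a gap of at least 3 units and 15 a gap of at least 5. Of the 44 low genes, 34 were not detected in OUMS23, 19 had a gap of at least 3 units and 3 a gap of at least 5.

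**Figure D1:**
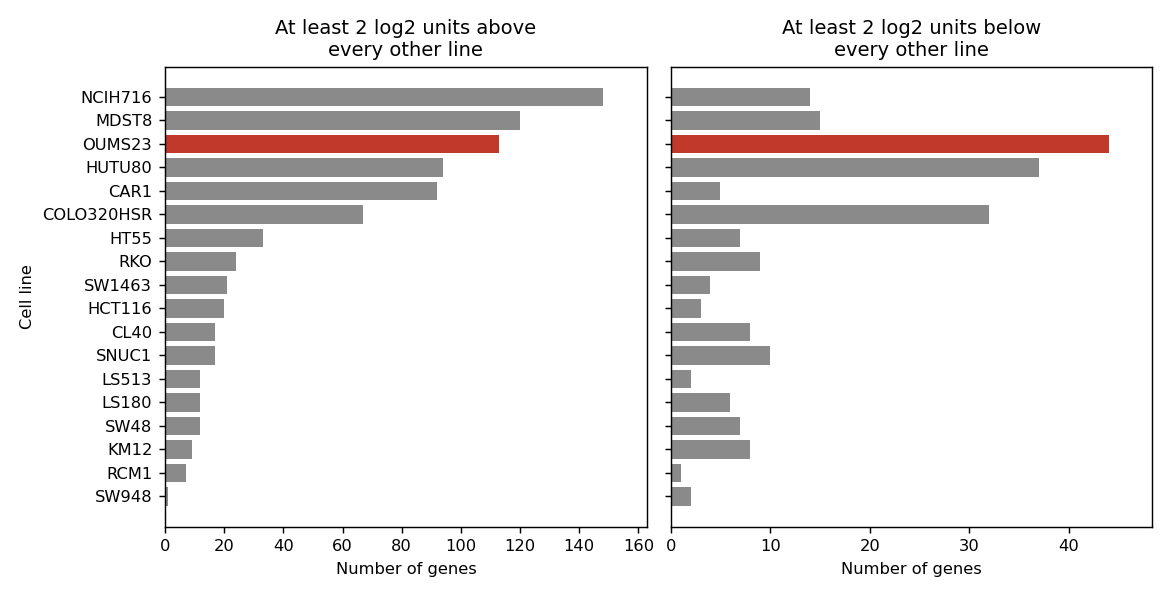
Number of genes (x axis) at least 2 log2 units above (left) or below (right) all 17 remaining lines, for each of the 18 cell lines (y axis), with OUMS23 in red. OUMS23 has 113 genes on the left, after NCIH716 and MDST8, and 44 on the right, the longest bar.

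The genes nearest to the threshold show how sharp it was. Just inside on the high side were PALM2, at the threshold itself, OLFML3 and CCDC8, the latter with gaps of 2.02 and 2.03, and just outside were ZNF331, ADGRD1 and SOCS1 with 1.97, 1.95 and 1.93. On the low side PIK3R1 was at the threshold, and CDK17 and ADCY3 had gaps of 2.06 and 2.11. BMAL2, FNIP2 and ST6GALNAC4 missed with 1.997, 1.99 and 1.98. Against the median of the other lines in place of the nearest one, 680 genes (4.89%) lay at least 2 units higher and detected in OUMS23. In the other direction 647 (4.66%) lay at least 2 units lower, with the median of the other lines above background. The ranges over the other lines were 271 to 901 and 99 to 786. A second probe set was present for 47 of the 113 high genes and differed from the median of the other lines by at least 2 units in the same direction in 24. Of the 44 low genes, 30 had a second probe set, and it did so in 18.

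The gene with the widest gap was XAGE3, an X-linked cancer-testis gene of the XAGE family. It read 11.80 in OUMS23 and between 2.73 and 3.69 (median 3.15) in the other lines. The other lines were all under background, and against the background level itself OUMS23 was at least 178-fold higher. XAGE2, a second gene of that family, read 11.51 against 3.10 to 4.20 (median 3.47), at least 146-fold higher on the same reckoning. The families of XAGE, MAGEA and VCX genes are similar in sequence, so a probe set may read more than 1 member. MAGEA8 read 9.25 against 3.10 to 3.83, and VCX2, a testis gene of chromosome X, read 9.74 against 2.84 to 3.53. A second VCX2 probe set lay 6.04 above the median of the other lines. None of these 4 overlapped with any other line. PAGE4, a family member known from prostate and placenta, read 11.66 in OUMS23 against a median of 3.18, but HUTU80 reached 9.13. MAGEA1 (9.42 against a highest other value of 8.92 in LS180), MAGEA6 (11.43, with NCIH716 at 12.05) and MAGEA12 (10.19, with COLO320HSR at 10.86) were shared with other lines. Of 20 cancer-testis genes measured, 15 were detected in at least 1 line and 8 in OUMS23. All 8 of these lay at least 1 unit above the median of the others. Over all detected genes 11.7% lay that far above and 11.0% that far below, shares that stand beside every list count that follows. They say little about cancer-testis genes, since 3 of the 15 were detected in OUMS23 alone and the median of the others was under background for all 15, which left little room to lie lower. CTAG2 (2.86), PRAME (3.17), MAGEA4 (3.50) and MAGEB2 (3.59) were not detected in OUMS23, although each exceeded 9 units in another line. The median difference was 2.64 over the 15 genes and 0.24 over all 20.

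**Figure D2:**
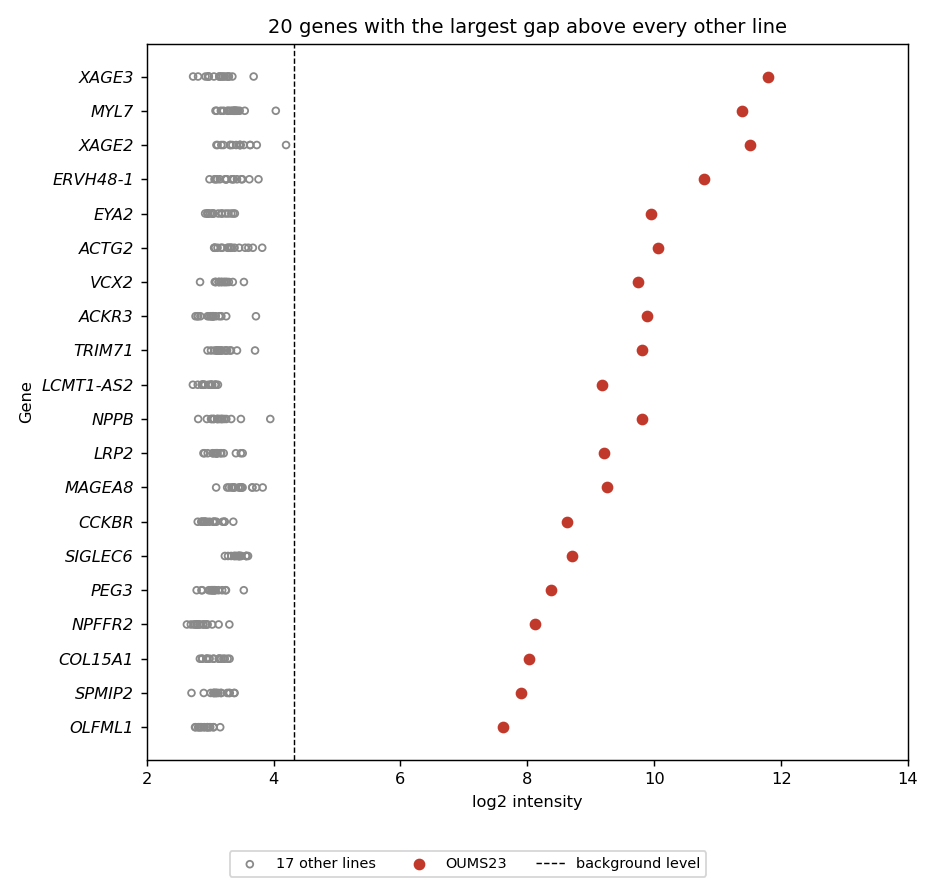
Log2 intensity (x axis) of the 20 genes with the largest gap above every other line (y axis). Filled red points are OUMS23, open grey points the 17 other lines, and the dashed line is the background level of 4.32. For all 20 genes every other line lies under the background level, and OUMS23 reads between 7.61 and 11.80.

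A second group was muscular. MYL7, the regulatory myosin light chain of the cardiac atria, read 11.39 in OUMS23 and 3.09 to 4.04 (median 3.37) in the other lines, a gap of 7.35. ACTG2, the enteric smooth muscle actin, read 10.07 against 3.06 to 3.82, but its second probe set read 3.45 in OUMS23 and differed by -0.04 from the other lines. NPPB, which encodes the heart hormone B-type natriuretic peptide, read 9.80 against 2.81 to 3.95. These 3 genes were detected in OUMS23 alone, and MYL7 and ACTG2 are those whose promoters are shown above with CArG matches. TAGLN, a calponin-related protein of smooth muscle, read 10.75 against 3.34 to 8.93 (median 3.72), and MYL9, the smooth muscle regulatory light chain, read 10.25 against 2.69 to 8.58 (median 3.27). CALD1, the actin-binding caldesmon, read 10.82 with MDST8 close behind at 10.77, so the 2 lines cannot be separated on single arrays. MYLK, the kinase of the light chain, read 8.50 and stood under MDST8 at 10.43. TPM2 (9.28), TPM1 (11.97) and ACTA2 (6.04) were likewise above the median of the others but not the highest. MYH11, the smooth muscle myosin heavy chain, read 3.94 and was not detected. CNN1 and LMOD1 read 4.59 and 4.43, barely over background. Of 16 actomyosin genes measured, 15 were detected in some line and 14 in OUMS23. Of the 15, 12 lay at least 1 unit above the median of the others, none at least 1 unit below, and 9 were the highest of the 18 lines (11.7%, 11.0% and 8.95% of all detected genes). Of the 15, 3 had been detected in OUMS23 alone and could only be higher, and in all but 5 the median of the others was under background. The median difference was 2.25 over the 15 and 1.87 over all 16, against at most 1.02 and 0.95 in any other line. Averaging all probe sets of each gene gave 1.72 in place of 2.25, and a background level of 5 gave 4.41 over fewer genes.

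Cardiac and striated muscle genes were high at a few points. MYL7 and NPPB stood far above the other lines, and the rest were near background or shared. MYL4, the atrial essential light chain, read 4.90 and MYH6, the atrial myosin heavy chain, read 4.81, each above all other lines (at most 3.92 and 3.65) but near background. ACTN2, the sarcomeric alpha-actinin, read 5.53 against 3.05 to 3.90, though a second probe set differed by only -0.09. TNNT1, a slow skeletal troponin, read 9.67 but HCT116 reached 10.59. The troponin TNNC1 read 7.34 with CL40 at 9.95. TTN and RYR2 (3.23 and 3.36) were not detected, and the cardiac factor NKX2-5 at 4.90 was among values of 4.27 to 7.21. Of 23 genes measured, 13 were detected in some line and 10 in OUMS23, and 8 of the 13 lay at least 1 unit above the median of the others with none as far below (11.7% and 11.0% of all detected genes). Detection in OUMS23 alone had admitted 5 of the 13, which could only be higher, and the median of the others was over background for 3. The median difference was 1.62 over the 13 and 0.17 over all 23, the latter close to the highest other line at 0.15. Leaving out each of the other lines in turn gave 1.28 to 1.64 over the detected genes.

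Genes of placenta and of early embryonic cells formed the next group. This list and those for pluripotency and DNA methylation were drawn up after values of these data had been seen. The other lists, the cancer-testis and muscle lists above among them, were chosen with earlier results of these data known. The counts of all lists therefore describe and support nothing further. ERVH48-1, an envelope gene of retroviral origin whose product suppressyn is made in trophoblast, read 10.78 against 2.99 to 3.76. SIGLEC6, a sialic acid-binding lectin of placenta and B cells, read 8.71 against 3.23 to 3.60. INSL4, an insulin-like peptide of placenta, read 7.06 against 3.28 to 4.07. No other line exceeded background in these 3. VGLL1, a TEAD cofactor of trophoblast, read 11.06 with CAR1 at 10.14. Among the transcription factors that specify trophoblast, TFAP2C read 11.00 against 4.47 to 9.11 (median 5.70) and GATA3 read 10.11 against 3.05 to 8.26 (median 3.88). GATA2 read 8.54 against 4.15 to 7.36, and TEAD4 read 10.04 against 7.22 to 9.48. OUMS23 was the highest line for all 4, with no overlap. The steroid enzymes HSD3B1 (8.46, with LS513 at 8.94) and CYP11A1 (6.07 against at most 3.42) were also above the middle of the panel. Not all placental genes followed. PEG10 (2.99), TFPI2 (3.09) and ELF5 (3.45) were not detected, and HLA-G at 7.78 was below the median of 9.86, a probe set that may also read other HLA genes. Of 69 placental genes measured, 51 were detected in some line and 39 in OUMS23. Of the 51, 30 lay at least 1 unit above the median of the others and 6 as far below, against 11.7% and 11.0% of all detected genes. In 27 OUMS23 was the highest of the 18 lines and 14 passed the gap of 2 units (8.95% and 0.813% of all detected genes). Of the 51, 16 were detected in OUMS23 alone and could only be higher, and XAGE2, XAGE3 and PAGE4 were counted in the cancer-testis list too. The median difference was 2.37 over the 51 and 0.43 over all 69, against at most 0.29 and 0.12 in any other line.

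The pregnancy-specific glycoprotein genes, secreted immunoglobulin-like proteins of trophoblast, made the longest run of high neighbours found in any line. A high run was at least 3 consecutive detected genes, each detected in OUMS23 and at least 2 units above the median of the others. PSG3, PSG1, PSG6, PSG7, PSG2, PSG5 and PSG9 on chromosome 19 read 8.13, 6.33, 5.61, 6.71, 6.72, 8.61 and 7.65. All 7 were the highest of the 18 lines. CAR1 came closest, at 6.29 for PSG5 and 5.18 for PSG1. PSG11 and PSG4, which lie within the run, read 3.86 and 3.88 and were not detected, and neither were the outer neighbours CEACAM8 (2.84) and CD177 (3.27). These genes are near copies, so the split among them is uncertain. The 3 PSG promoters in the RefSeq table (PSG3, PSG4 and PSG5) were 84.3 to 93.0% identical over 300 bases, which includes the PSG4 gene that was not detected. A run of 4 cystatin genes on chromosome 20, secreted inhibitors of cysteine proteases, behaved likewise. CST4, CST1, CST2 and CST5 read 8.88, 9.68, 7.94 and 6.15, each the highest of the 18 lines, with SW1463 next for the first 3 (7.70, 8.82 and 5.44). CST3, the widely expressed neighbour, read 9.23 and lay within the range of 7.97 to 10.51. The cystatins too share sequence.

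In all there were 11 high runs holding 40 genes, 5.91% of the 677 high genes placed in gene order. High genes made up 4.88% of the 13866 genes placed. The other lines had 0 to 20 high runs, so the number itself was not extreme. On chromosome 18 the run ARHGAP28, LINC00668, LAMA1 and PTPRM read 9.72, 7.54, 9.68 and 7.42. LAMA1, a laminin chain of embryonic basement membranes, was above every other line, MDST8 being the next, whereas PTPRM was level with MDST8 at 7.47. BAMBI, PTCHD3P1, SVIL and JCAD formed a run of 4 on chromosome 10. A run of MAGEA12, CSAG3 and MAGEA6 on chromosome X was also present in 5 other lines by the same threshold, which none of the other 10 runs was.

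Among regulators of pluripotency and of early development, TRIM71, a ubiquitin ligase of embryonic cells, read 9.81 against 2.96 to 3.71. LIN28B and LIN28A, RNA-binding proteins that block the let-7 microRNAs, read 8.38 and 7.18 and were not detected elsewhere (at most 3.97 and 3.42). SALL4 read 8.90, but HUTU80 reached 9.66. PEG3, an imprinted zinc finger gene, read 8.38 against 2.79 to 3.53. Of 16 pluripotency genes measured, 8 were detected in some line, 5 of which lay at least 1 unit above the median of the others (11.7% of all detected genes). Detection in OUMS23 alone had admitted 3 of the 8, and for none of the 8 was the median of the others over background, which left little room to lie lower. The median difference was 4.08 over the 8 and 0.28 over all 16. Of 21 imprinted and oncofetal genes, a list with LIN28A, LIN28B and PEG3 in it, 19 were detected in some line. Of these, 10 lay at least 1 unit above the median of the others and 3 as far below (11.7% and 11.0% of all detected genes), and 3 were detected in OUMS23 alone. GRB10 (9.90 against at most 8.65), MEST (11.02 against at most 10.06) and IGF2BP1 (6.43 against at most 6.34) were highest in OUMS23. PHLDA2 was low at 5.41 against a median of 10.66, although its second probe set differed by 0.07.

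The de novo DNA methyltransferases DNMT3B and DNMT3A read 10.27 and 9.04. The other lines lay at 3.76 to 7.60 (median 5.30) for DNMT3B and at 4.30 to 7.63 (median 5.66) for DNMT3A, with no overlap for either. The maintenance enzyme DNMT1 read 9.24 within a range of 8.68 to 9.79. MBD2, which binds methylated DNA, was the lowest of the 18 lines at 6.66 against 9.09 to 10.40. Its second probe set was not detected in OUMS23 and differed by -0.18. Of the 12 such genes detected, 3 lay at least 1 unit above the median of the others and 1 as far below (11.7% and 11.0% of all detected genes).

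**Figure D3:**
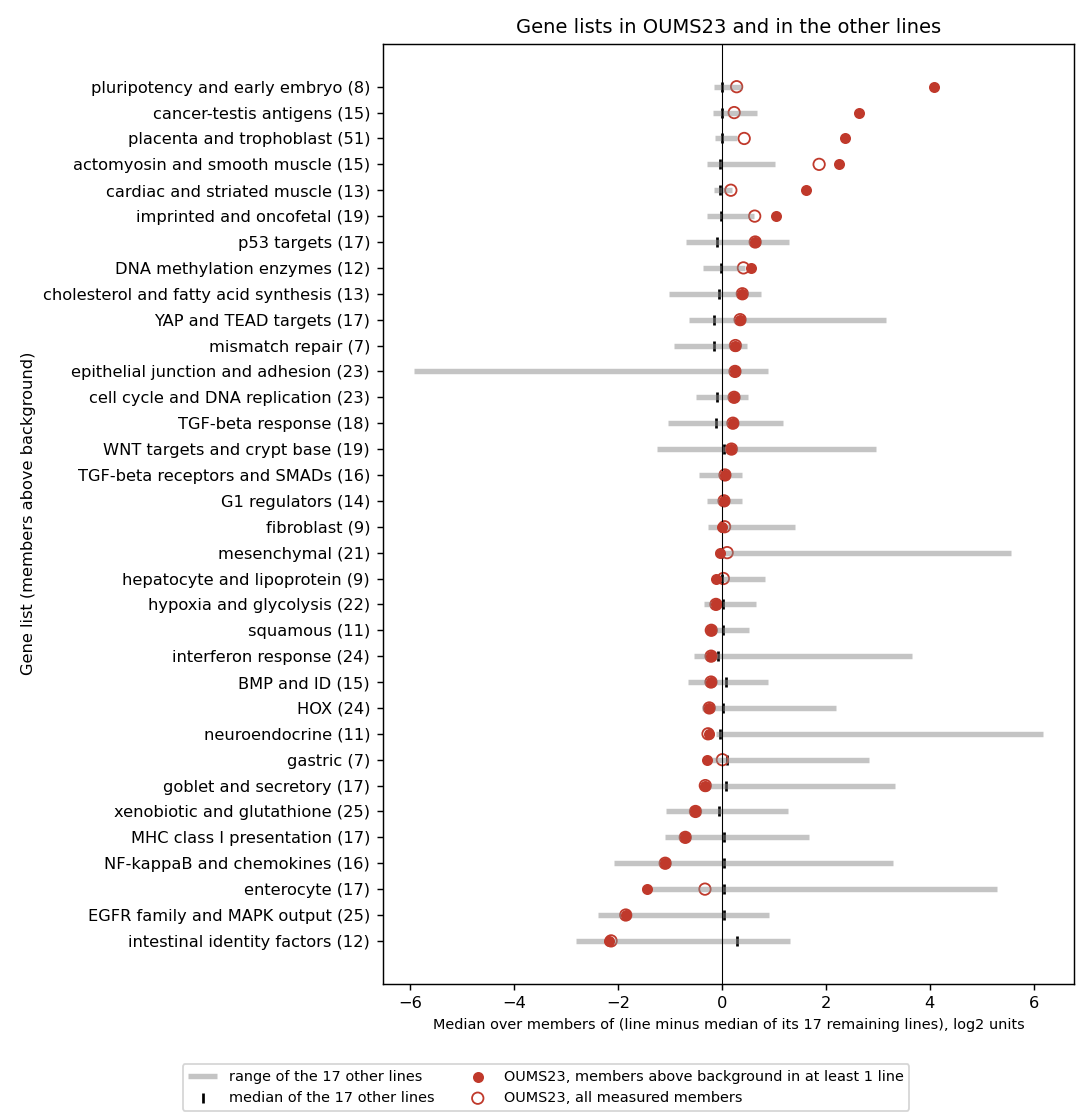
Median over the members of each gene list (y axis, number of members detected in at least 1 line in brackets) of the line minus the median of its 17 remaining lines (x axis, log2 units). Filled red points are OUMS23 over detected members, open red circles OUMS23 over all measured members, and grey bars with a tick the range and median of the other lines. The medians for the pluripotency (4.08), cancer-testis (2.64), placenta (2.37), actomyosin (2.25) and cardiac (1.62) lists lie to the right of every other line, and most shrink over all measured members.

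Genes of colon identity were low or not detected, while general epithelial genes were present. EPCAM and CDH1, the epithelial adhesion molecules, read 11.67 and 11.57, and the keratins KRT8 and KRT18 read 12.67 and 13.16. All 23 epithelial genes were detected in OUMS23, and their median difference was 0.25, the 10th highest of the 18 lines. It was -0.06 against the DMEM/F-12 lines alone, 0.13 without COLO320HSR and 0.60 without SNUC1. PRSS8, a protease of epithelial sheets, was the highest of all lines at 9.34 against at most 9.16. By contrast VIL1, the actin bundler of microvilli, read 3.73 against a median of 8.18. Intestinal cadherin CDH17 read 3.59 against a median of 10.08, and the lectin LGALS4 read 4.08 against 10.39. KRT20 read 3.21 and the intestinal factor CDX2 read 4.84 against a median of 7.06. The first 4 of these 5 were also undetected in 6 or 7 other lines. CDX1 (3.88), FOXA2 (3.27) and HNF4G (2.89) were not detected in OUMS23 and were detected in 16, 11 and 14 of the other lines. Of 12 intestinal identity factors detected in some line, none lay at least 1 unit above the median of the others, 8 lay at least 1 unit below (11.7% and 11.0% of all detected genes) and 4 were detected in OUMS23. The same counts for 17 enterocyte genes were 0, 9 and 0, and for 17 goblet cell genes 0, 5 and 1. In each of these 3 lists another line had a lower median than OUMS23 (-2.18, -1.45 and -0.32), namely COLO320HSR at -2.80, MDST8 at -1.54 and CAR1 at -0.39. KLF4 (8.85) and GATA6 (7.99) stayed near the middle of the panel. Of the posterior HOXB genes, which mark the hindgut, HOXB6, HOXB8 and HOXB9 read 3.22, 3.95 and 3.29 against medians of 8.97, 7.89 and 7.61. A second probe set for HOXB6 and HOXB8 differed by only -0.07 and -0.75. Of 24 HOX genes detected in some line, 2 lay at least 1 unit above the median of the others and 7 as far below. Over all detected genes these shares were 11.7% and 11.0%. The median of the others was over background for 12 of the 24, and the rest had little room to lie lower. The list median was -0.24, and LS180 was lower at -0.39.

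Markers of other cell types gave no single picture. Of 10 leukocyte genes measured, none was detected in OUMS23, with PTPRC at 3.15 and CD68 at 2.96. Of 10 endothelial genes, CDH5 (vascular cadherin) was the one detected, at 5.87 against at most 3.73. Of 21 mesenchymal genes detected in some line, 6 were detected in OUMS23. VIM, TWIST1, ZEB1 and FN1 read 3.31, 2.92, 3.66 and 3.38 and were not detected, whereas FERMT2 (10.66), SPARC (9.74), MSN (8.94) and COL5A1 (8.32) were at or near the top of the panel. Among 9 fibroblast genes, FBLN1 read 9.79, with CAR1 at 10.04, while LUM, DCN and THY1 read 2.99, 3.29 and 3.49. Neuroendocrine genes were not detected apart from DDC at 6.15. In a bulk extract, fewer cells with a transcript and less transcript per cell cannot be told apart. The part of any other cell type in the muscle and placental values was not tested.

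Turning to the low genes, SNX7, a sorting nexin of endosomes, read 3.17 in OUMS23 and between 8.56 and 11.37 (median 9.33) in every other line. PAM, the enzyme that amidates peptide hormones, read 3.81 against 8.84 to 11.18 (median 9.73). A second probe set was lower still, by 6.71. CERS6, a ceramide synthase, read 3.37 against 8.32 to 10.65 (median 9.52), and its second probe set differed by -6.20. These 3 genes were detected in all 17 other lines and not in OUMS23, where the median of the others stood at least 32.3-fold, 42.5-fold and 36.7-fold above background. TSPO, a cholesterol-binding protein of the outer mitochondrial membrane, read 4.24 against 9.03 to 10.63. EPB41L2, a membrane skeleton protein of the band 4.1 family, read 3.61 against 8.36 to 11.52, and PLSCR1, a phospholipid scramblase, read 3.16 against 7.87 to 11.33. PHF19, a subunit of Polycomb repressive complexes, read 3.32 against a median of 8.49, again with no overlap. STK39, a kinase that controls ion transport, read 3.24 against 7.75 to 10.44, and AK3, a mitochondrial adenylate kinase, read 4.66 against 9.02 to 11.29. The widest gap belonged to H4C3, which was dim but detected at 5.97 against 11.78 to 12.58. H4 histone genes encode the same protein, so this probe set may read more than 1 gene.

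**Figure D4:**
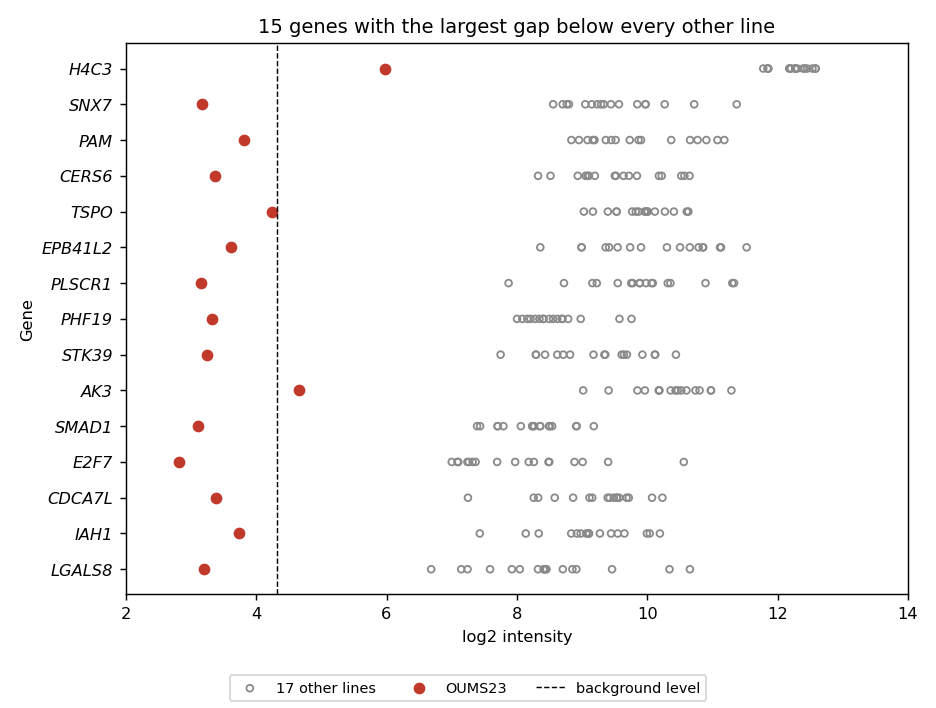
Log2 intensity (x axis) of the 15 genes with the largest gap below every other line (y axis). Filled red points are OUMS23, open grey points the 17 other lines, and the dashed line is the background level of 4.32. For 13 of the 15 genes OUMS23 lies under background while all other lines lie at 6.68 or higher.

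Second probe sets bear on how firmly these values stand. Of the 15 genes with the largest gap, 10 had a second probe set, and in 8 it too was at least 2 units below the median of the others. The exceptions were E2F7, an atypical E2F repressor, whose second set was not detected in OUMS23 (3.66, a difference of -0.38), and IAH1, an esterase. For IAH1 the second set read 8.47 in OUMS23, 0.88 above the other lines, against 3.73 by the first. Among the 20 genes with the largest gap on the high side, 6 had a second set. It was at least 2 units higher for LRP2, SIGLEC6 and VCX2 and under background for ACTG2, ACKR3 and CCKBR. Of the 44 low genes, 36 had a promoter in the RefSeq table, with a median of 28.5 CG dinucleotides in 300 bases against 28.0 for genes detected in all other lines. Of the 113 high genes, 79 had one, with a median of 13 against 26 for all detected genes. The 163 detected genes that no other line detected (113 with a promoter) had a median of 14. Of the 113 high genes, 69 are among these 163, so the 2 sets are not independent. Why the high genes held fewer CG dinucleotides was not tested. At least 15 CG dinucleotides were present in 80.6% of the low set (89.5% of genes detected in all other lines), in 46.8% of the high set, in 47.8% of the genes that no other line detected and in 78.2% of all detected genes.

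Many transcripts of growth factor signalling were low. DUSP6, the phosphatase that is a transcriptional output of ERK signalling, read 3.74 against 5.93 to 12.17 (median 10.15). SPRY2, a feedback inhibitor of the same pathway, read 4.06 against 6.39 to 11.44 (median 9.32). Both lay below every other line without overlap. PHLDA1 was not detected at 4.28, with COLO320HSR close at 4.70. The EGFR ligand EREG was not detected at 2.46 and was detected in 13 of the other lines. ETV5, FOSL1 and IER3 read 4.20, 3.91 and 8.65 against medians of 8.16, 7.26 and 12.04. The receptor EGFR itself read 10.01, second to CAR1 at 10.21. Of 25 genes of this list, all detected in some line, 2 lay at least 1 unit above the median of the others and 17 at least 1 unit below (11.7% and 11.0% of all detected genes). The median difference was -1.85, and COLO320HSR alone was lower at -2.39.

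TGF-beta and BMP components differed among themselves. TGFBR2, the type II receptor, read 3.06 and was not detected, against 4.81 to 10.72 (median 9.64), and neither was its second probe set at 3.89. TGFBR1, the type I receptor, was the highest of all lines at 11.10 against 8.18 to 9.29. SMAD1, which carries BMP signals, read 3.11 against 7.39 to 9.18, with a second set at -4.55, while its relative SMAD5 was highest at 9.61. The BMP targets ID1 and ID3 read 7.78 and 6.47 against medians of 11.14 and 9.52, with 1 line below each. BMP7 was highest at 10.60 against at most 9.53. Over the response list, 6 of 18 genes lay at least 1 unit above the median of the others and 6 as far below (11.7% and 11.0% of all detected genes). The list median was 0.21, but -0.17 against the DMEM/F-12 lines alone and 0.11 without COLO320HSR. TIMP3 (8.61) and TNS1 (8.84) were above all lines, while JUNB (4.42) was below all. PMEPA1 was not detected at 2.88, and 12 of the other lines detected it.

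A number of antigen presentation and inflammatory genes were low. HLA-B, HLA-C and HLA-F read 5.70, 6.66 and 5.52 against medians of 10.27, 10.94 and 9.37, and HLA-F was the lowest of the 18 lines. COLO320HSR had similar or lower levels of HLA-B (5.70) and HLA-C (5.55). HLA genes resemble one another, so each probe set may read several. B2M, the shared light chain, was bright at 12.29, and TAP1 read 7.38 near the median of 7.22. Of 17 genes, none lay at least 1 unit above the median of the others and 8 lay as far below (11.7% and 11.0% of all detected genes). In the NF-kappaB and chemokine list of 16 these counts were 0 and 8, with CXCL8 at 3.66 against a median of 9.15. The list medians were -0.70 and -1.09, and HUTU80 (-1.09) and COLO320HSR (-2.07) were lower than OUMS23 in the first and second list. Of 24 interferon genes, 5 lay at least 1 unit above the median of the others and 3 as far below, with a list median of -0.21. The shares over all detected genes were again 11.7% and 11.0%. The median of the others was over background for 14 of the 24. IFI6 was the highest of all lines at 11.52 and BST2 read 9.01 against a median of 4.03, whereas IFIH1 (4.07) and OAS1 (4.23) were not detected against medians of 7.54 and 7.74.

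Among other lists, 7 of 17 p53 targets lay at least 1 unit above the median of the others and 2 as far below (11.7% and 11.0% of all detected genes), with MDM2 (9.68 against at most 9.11) and TIGAR (10.57 against at most 9.45) above every line. FAS, also a p53 target, was not detected at 4.01 and was detected in 16 of the other lines. Of 25 genes of xenobiotic and glutathione metabolism, 4 lay at least 1 unit above and 12 at least 1 unit below (11.7% and 11.0% of all detected genes). Their median was -0.51, -1.11 against the DMEM/F-12 lines alone and -0.86 without NCIH716. GPX1, the ubiquitous glutathione peroxidase, was not detected at 3.87 against a median of 11.06, though COLO320HSR (4.02) lacked it too. The drug transporter ABCG2 was highest at 10.69 against at most 9.23. The glucose transporter SLC2A3 read 12.09 against a median of 5.08, with HUTU80 at 11.90, while LDHA, PGK1 and PKM were the lowest of all lines at 11.56, 11.36 and 8.07. Of 22 hypoxia and glycolysis genes, 5 lay at least 1 unit above the median of the others and 3 as far below. These shares were 11.7% and 11.0% over all detected genes, and the list median was -0.11. All 23 cell cycle and replication genes were detected, with a median difference of 0.23 and AURKA above every line (11.94 against at most 10.94). CD44 and SOX9, listed with the WNT and intestinal genes, read 3.74 and 3.61 against medians of 10.18 and 10.02. AXIN2 at 9.59 was close to its median of 9.33, and APCDD1 read 8.39 against a median of 4.69. Of 19 WNT and crypt base genes, 5 lay at least 1 unit above the median of the others and 6 as far below. Over all detected genes the shares were 11.7% and 11.0%, and the list median was 0.18.

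Low genes also lay next to one another. A low run was at least 3 consecutive genes, counting those whose median in the other lines was above background, each at least 2 units below that median. OUMS23 had 16 such runs holding 52 genes, 8.06% of its 645 low genes, which themselves were 6.31% of the 10221 genes placed. HUTU80 had 21, COLO320HSR 16 and the median of the other lines was 2. Averaging all probe sets of each gene left 5 runs in OUMS23. Of the 52 genes, 46 were under background in OUMS23 and 31 ranked lowest of the 18 lines. That rank has no meaning for the 38 genes that at least 1 other line did not detect either. No run consisted wholly of genes detected in all other lines. In 12 of the 16 runs, no other line had all members that low by the same threshold.

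The longest run held 5 genes on chromosome 10, ANKRD22, STAMBPL1, FAS, LIPA and IFIT5, at 3.63, 2.98, 4.01, 3.65 and 3.65. LIPA, the lysosomal acid lipase, was between 5.49 and 10.25 in every other line, and STAMBPL1, a deubiquitinase, had a median of 8.44. FAS, the death receptor, had a median of 7.09 and IFIT5 of 6.86. The second probe sets of STAMBPL1 and FAS differed by -4.00 and -3.95, and that of LIPA, not detected in OUMS23, by -0.06. One other line had all 5 genes that low. The genes between did not all follow. ACTA2, which lies between STAMBPL1 and FAS, was detected at 6.04 with the median of the others at 3.79. PAPSS2 (2.94 against a median of 7.67) and ADIRF (3.23 against 8.29) lay further along on the same side. On the other side PANK1 read 6.43 against 6.75 and RPP30 read 8.17 against 8.58. On that side too, PCGF5 was low at 5.88 against 8.49, and KIF20B at 6.97 was below all other lines (at least 7.17). ATAD1 and GLUD1, also on the first side, were detected at 7.60 and 9.19 and lay below all other lines (at least 8.83 and 10.26).

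On chromosome 2, GALNT3, STK39, CERS6 and NOSTRIN formed a run of 4 with values of 3.20, 3.24, 3.37 and 2.52. STK39 and CERS6 were detected in every other line, whereas GALNT3, a glycosyltransferase of mucins, and NOSTRIN were detected in 13 and 10 of them. A second GALNT3 probe set differed by 0.02. The next detected gene, SPC25, a kinetochore protein, read 8.71 among values of 7.26 to 9.44. A few genes further LRP2, the endocytic receptor megalin, read 9.21 and was detected in OUMS23 alone (at most 3.51 elsewhere). On the near side of that run DPP4, IFIH1 and GCA formed another, at 3.63, 4.07 and 3.13. IFIH1 and GCA were detected in every other line and DPP4 in 13. Between both runs FIGN read 7.18 against at most 5.69, and COBLL1 read 6.98 near its median of 6.26. The low stretch was thus interrupted by genes at or above the level of the panel.

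**Figure D5:**
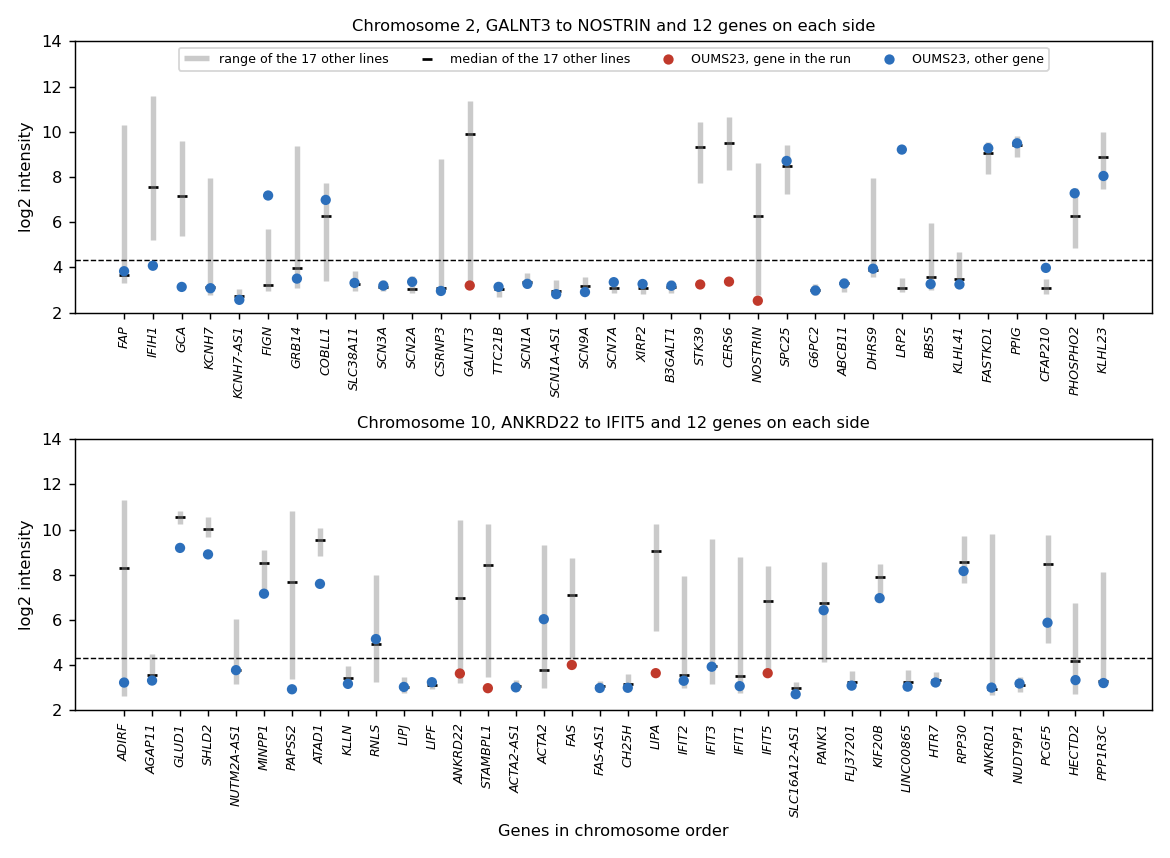
Log2 intensity (y axis) of genes in chromosome order (x axis, equal spacing, not to distance) around the runs on chromosome 2 (top) and chromosome 10 (bottom). Red points are OUMS23 in run genes, blue points OUMS23 in other genes, grey bars and ticks the range and median of the 17 other lines, and the dashed line the background level. Red points lie under background, with SPC25 (8.71), LRP2 (9.21) and ACTA2 (6.04) as detected neighbours.

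The other run of 4, on chromosome 12, held PTPRB, PTPRR, TSPAN8 and LGR5. TSPAN8, a tetraspanin of gut epithelium, read 3.29 against a median of 11.36, and LGR5, the marker of intestinal stem cells, read 2.99 against 5.39. Each of the 4 was undetected in 5 to 8 of the other lines, among them RKO and HUTU80 for most. The directly neighbouring KCNMB4 was high at 8.15 against 3.61 to 7.93. The other 13 runs held 3 genes each. Among them were CXCL2, MTHFD2L and EREG on chromosome 4, and JPH1, GDAP1 and HNF4G on chromosome 8. MTHFD2L, of folate metabolism, read 4.07 and GDAP1, a mitochondrial fission factor, 3.99, and both were detected in every other line. PLSCR1 and EPB41L2, named above, lay in runs with DIPK2A and PLOD2 on chromosome 3 and with TMEM200A and AKAP7 on chromosome 6. AGR2, AGR3 and AHR on chromosome 7 read 3.37, 3.28 and 2.62, and 2 other lines had all 3 that low. SOX9 lay in a run with MAP2K6 and LINC00673 on chromosome 17 that 2 other lines shared. Runs on chromosome X held ZNF711, POF1B and DIAPH2, and RADX, RNF128 and TBC1D8B, of which RNF128 read 3.37 against a median of 9.11.

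Whole chromosomes were compared over genes detected in all 18 lines. The shares of 11.7% and 11.0% given above are over genes detected in any line and do not apply here. By chromosome, 2.35% (chromosome 4) to 17.1% (chromosome 14) of genes lay at least 1 unit above the median of the others. From 1.76% (chromosome 20) to 17.8% (chromosome 18) lay at least 1 unit below it. On chromosome 1, which had the most genes (769), 8.32% lay that far above and 4.94% that far below. The share over all chromosomes together is not given. On chromosome 3 the median difference was 0.199, marginally the highest of the 18 lines (at most 0.198 elsewhere), and 56 of 431 genes lay at least 1 unit above the median of the others. It was 0.41 on chromosome 14 and 0.36 on chromosome 20, where 17.1% and 16.3% of genes lay that far above. It was -0.32 on chromosome X, -0.25 on chromosome 18 and -0.24 on chromosome 4, where 12.4%, 17.8% and 15.3% lay at least 1 unit below. On each of the latter 5 chromosomes at least 1 other line had a more extreme median. DNA copy number was not analysed here, and its part in these values was not tested.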

How the data were processed

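RNA of 18 cell lines was measured on Affymetrix arrays, 1 array per line. The deposited values were log2 intensities. The submitters' processing notes name RMA and the affy package as what the authors used to make them, and versions were not given in the sources used here. RMA puts all arrays on one distribution, so a shift of total RNA is not visible. Nothing in the labels ties arrays to batches, and no line was repeated, so differences between lines hold culture and array effects too.

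Of 54613 probe sets, 40914 had a single gene symbol, 864 several and 12835 none in the platform annotation, and 40858 were matched by Entrez number to current names. This gave 19774 genes. For genes with several probe sets, the one of highest mean over the 18 arrays was used. The background level of 4.32 was the 95th percentile over 95 probe sets of 64 of 72 listed genes, and 18 of these probe sets exceeded it in some line. A gene was kept if it exceeded the level in at least 1 line (13899 genes, 7558 of them in every line), so a gene kept through OUMS23 alone had to differ, and list medians are also given over all measured members. Gene order and promoters are from RefSeq (GRCh38.p14).

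Genes to be named by rule were the 20 with the largest gap above and the 15 with the largest gap below every other line. The rule also took every gene in a run of at least 3, the 4 largest absolute differences of each list, and XAGE3 and MYL7. Not all genes under the rule are mentioned in the text. Any other gene was named after its values were seen. The members and lists were chosen with earlier results of these data known. The counting of genes and runs, not their significance, was checked on simulated data with planted differences. Alternatives were the threshold, the background level, the probe set chosen, the array scaling, DMEM/F-12 lines alone and each line left out. Python 3.11.15, pandas 2.3.3, numpy 2.4.6 and matplotlib 3.10.9 were used.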

Additional observations from a re-analysis of the deposited data

How the results depend on the processing

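No paired analysis was possible because each line has 1 array and the labels give no replicate numbers. Background levels of 5 and 6 were added after the data were seen. The 99th percentile of the background probe sets was 8.41, since some of those genes were expressed in some line, so that setting drops most genes. Of the 234 genes named by the rule, none that differed by at least 2 units changed direction. A change of direction was not looked for in genes with smaller differences. Averaging all probe sets moved 58 of the 234 genes, the probe set with the largest SD 8 and DMEM/F-12 lines alone 2. All 17 correlations moved at the 99th percentile.

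Genes above every other line numbered 290 at 1 unit, 56 at 3 units, 41 at the 99th percentile and 176 against DMEM/F-12 lines alone. Genes below every other line numbered 126 at 1 unit, 19 at 3 units, 7 at the 99th percentile, 29 with averaged probe sets and 91 against DMEM/F-12 lines alone. Against the median, 1620, 379 and 271 genes were above and 1509, 354 and 207 below at 1 unit, 3 units and the 99th percentile. Low runs numbered 29 at 1.5 units, 3 at the 99th percentile, 5 with averaged probe sets and 3 with at least 4 genes. High runs numbered 21 at 1.5 units, 7 at the 90th percentile, 3 at the 99th percentile and 4 with at least 4 genes. The actomyosin median was 4.41 at background 5, 4.51 at background 6 and at the 99th percentile, 1.87 at the 90th percentile, 1.72 with averaged probe sets and 2.95 with the largest SD. The cancer-testis median was 5.64 at background 6 and at the 99th percentile, 0.49 at the 90th percentile and 6.40 against DMEM/F-12 lines alone. The cardiac median was 1.43 with array scaling, 1.90 at backgrounds 5 and 6, 0.69 and 5.29 at the 90th and 99th percentiles and 1.48 with averaged probe sets. The placental median was 2.62, 3.05, 1.79 and 2.79 at backgrounds 5 and 6 and the 90th and 99th percentiles, 2.15 with averaged probe sets and 2.67 with the largest SD. The imprinted and oncofetal median was 0.48 at the 99th percentile, 1.35 against DMEM/F-12 lines alone and 1.47 with the largest SD. The pluripotency median was 2.74 at the 99th percentile, 3.56 with averaged probe sets and 4.56 with the largest SD. At the 99th percentile the HOX median was -1.44, that of TGF-beta receptors 0.35 and that of TGF-beta response -0.52, against 0.21. The endothelial median turned to -0.016 with array scaling and to -0.024 at the 90th percentile. Leaving out each other line gave 44 to 68 genes below every other line, 113 to 137 above, 619 to 685 below and 668 to 689 above the median, 14 to 20 low runs and 9 to 12 high runs. The cancer-testis median then lay between 2.63 and 3.97, the cardiac one between 1.28 and 1.64 and the leukocyte one between -2.16 and -0.37. Where no cause is named, the cause was not tested.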

Other observations

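Several genes that belong to no list above were also high in OUMS23 and were picked after their values were seen. GJA5, the atrial gap junction protein connexin 40, read 9.60 with a highest other value of 6.74. MB, the muscle oxygen store myoglobin, read 7.11 against at most 4.87. FABP3, the heart fatty acid-binding protein, read 7.27 against at most 3.91, and its second probe set was 4.17 above the other lines. CASQ2, the cardiac calcium store calsequestrin, read 5.53 against at most 3.46. KIT, the stem cell factor receptor, read 9.39 against at most 7.05, while its ligand KITLG was low at 3.35 against 6.66 to 12.15, though the second KITLG probe set differed by only -0.83. The WNT repressor TCF7L1 read 9.20 against at most 6.88, and the gut hormone GIP 7.21 against at most 3.60.

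For a few genes the probe set with the highest mean hid a difference that another probe set showed. HSD17B1, a placental oestrogen enzyme, read 5.30 within the range of the other lines, whereas its second probe set read 11.16, which was 7.30 above their median. The second set of L1TD1, an embryonic stem cell gene, read 8.38 against 4.48 for the first, and that of COL1A1 read 7.77 against 4.14. Which probe set follows the transcript was not tested.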
